A study of Mus musculus with 12 samples.

Results

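Left ventricles (LVs) of *Wt* mice born to diabetic dams were compared with LVs of *Wt* mice born to non-diabetic dams, with 3 animals in each group, over every gene that had 10 or more counts in at least 3 of these 6 samples. The 6 samples were taken from the 12 of the series by the genotype and the pregnancy in their labels, and the other 6, all Hif1a+/-, served only to check the spread between animals. The rule kept 14328 genes, out of 25105 with a count in the 6 samples and 46983 in the files. The dams were FVB females. In the diabetic group they had been made diabetic with streptozotocin, a toxin of the insulin-producing beta cell, before they were mated with non-diabetic Hif1a+/- males, so the fathers of both groups lacked 1 functional copy of *Hif1a* and the offspring compared here had both copies. The offspring were 12 weeks old and had not been given streptozotocin themselves. The animals are numbered 25, 42 and 89 in the non-diabetic group and 50, 7 and 80 in the diabetic group, and these numbers are used as names below. The study took each group from several litters, but the labels do not give an animal's litter, nor the time of day at which its heart was taken. The sex label reads female while the design text and the study give males, and the Y-linked gene *Ddx3y* was between 87.4 and 109 CPM (the count scaled to a common library total) in all 6 samples, with *Xist*, which silences the second X chromosome of females, at 0.229 to 5.96 CPM.

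Maternal diabetes exposes the embryo to excess glucose during the weeks in which the heart forms, and offspring of diabetic pregnancies are at raised risk of heart malformation and of metabolic and cardiovascular disease in later life. The comparison asks whether that exposure left a difference in the transcripts of the adult LV when *Hif1a*, the gene of the oxygen-regulated subunit of hypoxia-inducible factor 1, was intact. *Hif1a* itself, on chromosome 12, stood at 55.1, 56.7 and 71.4 CPM in the non-diabetic animals and at 47.5, 58.9 and 58.2 CPM in the diabetic animals. The ranges overlapped, and the log2 fold change, here and below diabetic minus non-diabetic with its standard error (SE), was -0.16 ± 0.14.

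The libraries were 3′-seq libraries, whose reads come from the 3′ end of a transcript, and the total count per sample ran from 16132442 to 29195547. The biological coefficient of variation between animals was 15.5% when estimated from the 6 samples and 13.7% when the other 6 were added. In a principal component analysis the first axis, with 36.8% of the variance, set diabetic animal 80 apart at 37.1, with non-diabetic animal 89 at 14.5 and the other 4 between -17.1 and -9.2, so its order did not follow the pregnancy. Markers of ventricular cardiomyocytes dominated every library, at a summed 104625 to 111840 CPM in the non-diabetic group and 104888 to 121337 CPM in the diabetic group. Red cell markers, whose sum was 7418 CPM in non-diabetic animal 25 and 1799 CPM in diabetic animal 50, were between 514 and 729 CPM in the other 4 animals. In whole tissue, fewer cells of a type and less RNA per cell cannot be told apart.

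None of the genes was called. In the quasi-likelihood test of edgeR with Benjamini-Hochberg adjustment, 0 of 14328 genes (0%) reached an adjusted p under 0.1. The smallest adjusted p, 0.71, was shared by *Gsta3* and *Tspan18*, and that of all other genes was 1. At an unadjusted p under 0.05 there were 124 genes with a higher mean in the diabetic group (0.865%) and 161 with a lower mean (1.12%). All 3 diabetic animals lay above all 3 non-diabetic animals in 295 genes (2.06%) and below them in 491 genes (3.43%). In either direction this made 786 genes (5.49%). An exact permutation test of 3 animals against 3 cannot go below a p of 0.1, so groups lying apart are a description and not a test. Most differences were small, and the log2 fold change had a median size of 0.088. Of all tested genes, 51.5% had a higher mean in the diabetic group. A mean at least 1.5-fold higher was found in 201 genes, of which 49 had groups that did not overlap, and a mean at least 1.5-fold lower in 248 genes, of which 100 did not overlap. The values that follow are descriptions of 6 animals, and "higher" or "lower" refers to means that did not pass the main test.

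DESeq2, the tool the study used, called 10 of the 14328 genes on the same 6 samples (0.0698%), and all 10 had groups that did not overlap. The 3 with a higher mean in the diabetic group were *Gsta3*, *Cys1* and *Il33*, and the 7 with a lower mean were *Tspan18*, *Arntl*, *Cdh20*, *Col5a3*, *Spon2*, *Slc41a3* and *Trp53i11*. With all 12 samples in the fit DESeq2 called 8 genes (0.0558%), of which 4 were the same, namely *Gsta3*, *Tspan18*, *Cdh20* and *Trp53i11*. The other 4 were *Mknk2*, with the smallest adjusted p of that fit at 0.0013, and *Cytl1*, *Emcn* and *Tsc22d3*, each at 0.077, all with a higher mean. *Gsta3* and *Tspan18* were also called in each of the 6 DESeq2 fits that left out 1 animal. Leaving out the filter on low counts, edgeR called 91 of 25105 genes (0.362%), all 10 DESeq2 genes among them. The prior degrees of freedom, which set how far each gene's spread is drawn to the common trend, were 5.4 in the test with the filter and 120.1 in the test without it.

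**Figure D1:**
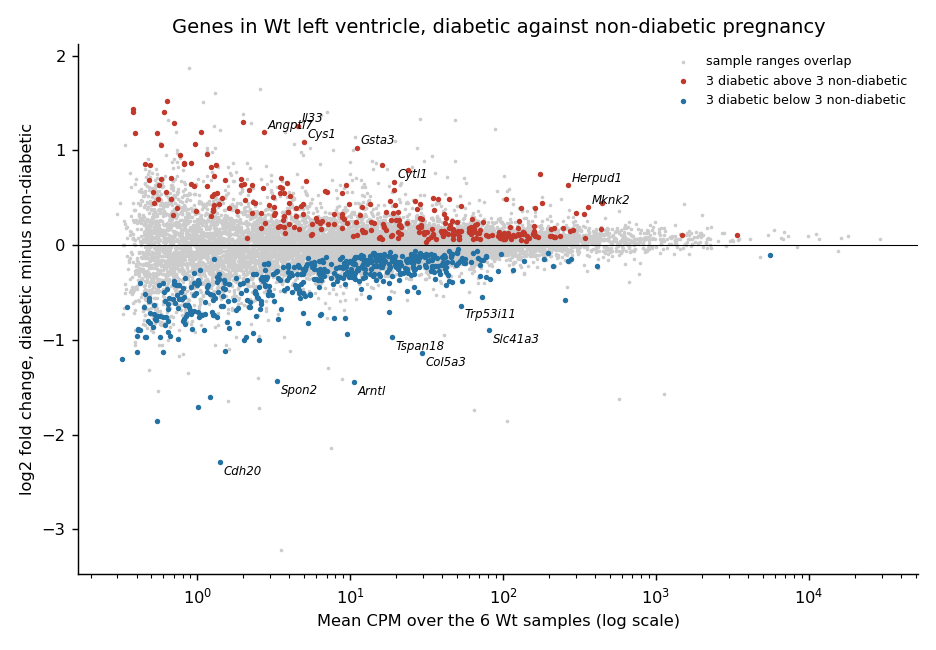
Log2 fold change (diabetic minus non-diabetic) of each of the 14328 genes against its mean CPM over the 6 Wt samples on a log axis. Red points are the 295 genes in which all 3 diabetic samples lay above all 3 non-diabetic samples, blue points the 491 in which they lay below, and grey points the rest. Names mark some of the genes with the smallest p.

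Among the genes with a higher mean, *Gsta3*, an alpha-class glutathione S-transferase that conjugates glutathione to lipid peroxidation products and other electrophiles, had the smallest p. It lies on chromosome 1 (GRCm38 21240589 to 21265661, plus strand). Its level was 6.97, 6.65 and 8.09 CPM in the non-diabetic animals and 14.9, 12.8 and 16.9 CPM in the diabetic animals. Each diabetic heart had more than any non-diabetic heart, and the difference was 2.04-fold (log2 fold change 1.03 ± 0.16 SE), with an adjusted p of 0.71 in edgeR and of 0.00036 in DESeq2. Without any 1 animal the log2 fold change stayed between 0.93 and 1.13. The other 37 measured genes of antioxidant defence and NADPH oxidases differed less: of the whole list of 38, 2 had non-overlapping groups with a higher mean (*Gsta3* and *Ncf1*), 1 with a lower mean (*Txnip*), beside 2.06% and 3.43% of all genes, and the median log2 fold change was 0.07.

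*Tspan18*, which encodes a tetraspanin of endothelial cells, was its counterpart among the genes with a lower mean. It stood at 23.1, 27.3 and 24.2 CPM in the non-diabetic animals and at 13.9, 14 and 10.2 CPM in the diabetic animals. The groups were apart by a log2 fold change of -0.97 ± 0.15 SE (edgeR adjusted p = 0.71, DESeq2 adjusted p = 0.00035). *Trp53i11* was lower in the same hearts, at 51.7, 70.7 and 71.6 CPM against 45.3, 39.6 and 39.7 CPM (log2 fold change -0.64 ± 0.14 SE, DESeq2 adjusted p = 0.098). These are neighbours on chromosome 2 of GRCm38. *Trp53i11*, on the plus strand, ends at 93201759, and *Tspan18*, on the minus strand, has its 3′ end at 93201760, so their transcripts end tail to tail with no base between them, at the place where 3′-seq reads fall. Whether the counting used the strand is not given in the sources used here, so the values of these genes may not be independent.

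The leading genes with a higher mean also included *Il33*, *Cytl1*, *Angptl7*, *Emcn* and *Pla2g4a*. *Il33*, an alarmin cytokine of the interleukin-1 family held in the nuclei of fibroblasts and endothelial cells, was at 3.76, 2.22 and 2.15 CPM against 4.43, 7.95 and 6.81 CPM. The groups did not overlap, although diabetic animal 50 was close to non-diabetic animal 25, and the log2 fold change was 1.26 ± 0.29 SE (DESeq2 adjusted p = 0.059). Its receptor gene *Il1rl1*, named after its values were seen, was below 1 CPM in every animal. *Cytl1*, which encodes a small secreted cytokine-like protein, was at 13.4, 14.6 and 16.4 CPM against 18.9, 26.3 and 25.8 CPM (0.67 ± 0.15 SE). *Angptl7*, of the angiopoietin-like family of secreted proteins, was at 1.42 to 1.75 CPM against 2.7, 3.08 and 5.62 CPM. Animal 80 was well above the others for *Angptl7*, and without it the log2 fold change went from 1.19 to 0.82. *Emcn*, the endothelial sialomucin endomucin, was at 42.4 to 47.8 CPM against 57.4 to 63 CPM (0.41 ± 0.10 SE). *Pla2g4a*, the cytosolic phospholipase that releases arachidonic acid from membranes, was at 3.71 to 4.19 CPM against 5.21 to 7.04 CPM (0.68 ± 0.18 SE).

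In the same ranking stood *Cys1*, the gene of the ciliary membrane protein cystin 1, at 2.71, 4.03 and 2.8 CPM against 6.17, 6.13 and 8.23 CPM. All diabetic hearts were above the highest non-diabetic heart, by a log2 fold change of 1.09 ± 0.22 SE (DESeq2 adjusted p = 0.038). *Mknk2*, a kinase of the translation initiation factor eIF4E, differed by less, between tight groups, at 317, 294 and 314 CPM against 397, 426 and 395 CPM, or 1.32-fold (log2 fold change 0.40 ± 0.10 SE). *Tsc22d3*, whose product GILZ is a glucocorticoid-induced leucine zipper protein, was at 83 to 91.2 CPM against 107, 135 and 126 CPM (0.49 ± 0.11 SE). The 25 glucocorticoid-responsive genes tested as a list had a higher mean in 18 and a median log2 fold change of 0.21, beside 0.00 for all tested genes. That median was -0.04 without diabetic animal 7 and at most 0.38 without any other. *Tsc22d3* was the only member whose groups did not overlap, beside 5.49% of all genes in either direction.

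**Figure D2:**
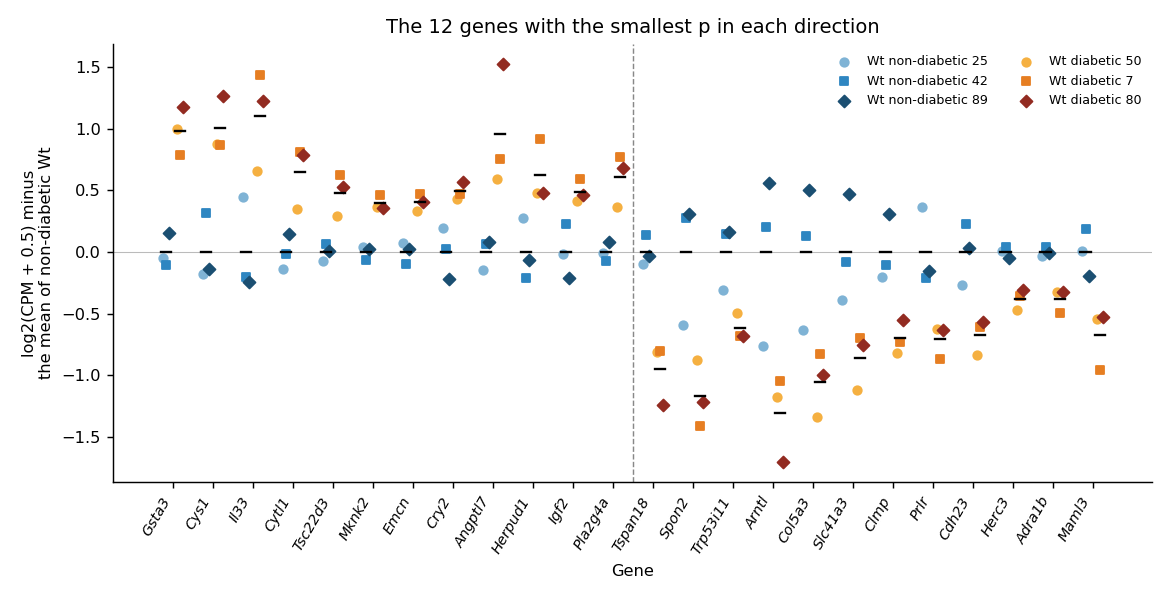
Level of the 12 genes with the smallest edgeR p in each direction, among genes with a mean of at least 50 counts, in each of the 6 Wt samples, as log2(CPM + 0.5) minus the mean of the 3 non-diabetic samples. Blue symbols are non-diabetic and warm-coloured symbols diabetic samples, black bars are group means, and the dashed line separates genes with a higher mean from genes with a lower mean; no gene shown has overlapping groups.

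The genes with a lower mean included secreted and adhesion proteins. *Col5a3*, a chain of the fibril-regulating collagen V, was at 24.6, 42.1 and 54.7 CPM in the non-diabetic animals and at 14.9, 21.5 and 19 CPM in the diabetic animals. The groups were apart, with animal 25 the lowest non-diabetic heart, and the log2 fold change was -1.14 ± 0.26 SE (DESeq2 adjusted p = 0.017). *Spon2*, the extracellular matrix protein spondin 2, was at 2.9, 5.7 and 5.85 CPM against 2.29, 1.42 and 1.7 CPM (-1.44 ± 0.31 SE). *Cdh20*, a type II cadherin, had the largest fold change of the 10 DESeq2 genes and a mean of 29.2 counts per sample, at 2.16, 3.08 and 1.67 CPM against 0.366, 0.271 and 0.851 CPM (-2.29 ± 0.44 SE, DESeq2 adjusted p = 0.013). *Cdh23*, the cadherin of hair cell tip links, was at 6.41 to 9.23 CPM against 4.16 to 5.11 CPM, and *Clmp*, an adhesion molecule of tight junctions, at 8.39 to 12.2 CPM against 5.3 to 6.47 CPM.

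The leading genes with a lower mean also included *Slc41a3*, *Prlr*, *Maml3* and *Herc3*, all with groups apart. *Slc41a3*, a magnesium transporter of mitochondria, was at 77.5, 95.7 and 141 CPM against 46.5, 62.3 and 60.1 CPM (log2 fold change -0.90 ± 0.21 SE, DESeq2 adjusted p = 0.038). *Prlr*, the prolactin receptor, was at 9.91 to 15 CPM against 6.09 to 7.31 CPM (-0.77 ± 0.19 SE). *Maml3*, a coactivator of Notch signalling, was at 6.91 to 9.14 CPM against 3.86 to 5.39 CPM (-0.73 ± 0.19 SE). *Herc3*, a ubiquitin ligase, was at 50.6, 51.8 and 48.6 CPM against 36.2, 39.2 and 40.6 CPM, a small difference between tight groups (-0.38 ± 0.10 SE).

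Of the pathway lists, the circadian clock had the most members with groups apart. The clock is a feedback loop present in nearly every cell, in which ARNTL (BMAL1) pairs with CLOCK or NPAS2 and binds E-boxes to switch on the *Per* and *Cry* genes, whose products then block the pair, while the proteins of *Nr1d1* and *Nr1d2* repress *Arntl* and the PAR-bZIP factors DBP, TEF and HLF act through D-boxes. In the heart this loop times metabolism, electrical properties and tolerance of stress across the day. All 21 genes of the list were tested, and 5 had diabetic animals all above and 2 all below the non-diabetic animals, beside 2.06% and 3.43% of all genes. At an unadjusted p under 0.05 there were 8 with a higher and 2 with a lower mean, beside 0.865% and 1.12% of all genes. None passed the adjustment in edgeR, and *Arntl* alone passed in DESeq2.

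The E-boxes and D-boxes of these genes are shown because they are the elements through which this loop acts on its target genes. Among the 250 bases upstream of RefSeq gene starts (GRCm38.p6), the E-box letters CACGTG occur on either strand in 6.02% of 32851 promoters and the D-box letters TTATGTAA in 0.819%. Promoters of 17 of the 21 clock genes were in the table, and those of 6 genes held at least 1 match. The windows are written 5′ to 3′ on the strand of the gene with the matched letters in capitals.
*Ciart*, chr3:95882247-95882364, minus strand, 3 E-boxes: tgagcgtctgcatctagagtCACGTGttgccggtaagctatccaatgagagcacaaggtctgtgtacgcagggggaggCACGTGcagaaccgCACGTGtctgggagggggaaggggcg
*Per3*, chr4:151044796-151044890, minus strand, 2 D-boxes: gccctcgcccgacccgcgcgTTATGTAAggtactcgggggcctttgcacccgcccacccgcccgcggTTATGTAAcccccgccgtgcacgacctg
*Per1*, chr11:69098763-69098808, plus strand, 1 E-box: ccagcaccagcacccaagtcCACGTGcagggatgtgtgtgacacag
*Cry1*, chr10:85185089-85185134, minus strand, 1 E-box: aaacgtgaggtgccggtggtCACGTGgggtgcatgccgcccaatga
*Tef*, chr15:81802526-81802571, plus strand, 1 E-box: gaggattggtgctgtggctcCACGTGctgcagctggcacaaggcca
A second *Tef* promoter and the promoter of *Bhlhe41* also held 1 E-box each. The letters were not in these windows of *Arntl*, *Clock*, *Npas2*, *Cry2*, *Nr1d1*, *Nr1d2*, *Rora*, *Dbp*, *Hlf*, *Nfil3* and *Usp2*. *Per2*, *Bhlhe40* and *Wee1* were among those not matched.

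The positive arm of the loop had lower means in the diabetic hearts. *Arntl* (chromosome 7, 113207465 to 113314126, plus strand) was at 8.33, 16.7 and 21.5 CPM in non-diabetic animals 25, 42 and 89 and at 6.12, 6.74 and 4.09 CPM in diabetic animals 50, 7 and 80. The groups did not overlap, although animal 25 was nearer to the diabetic animals than to animal 42, and the log2 fold change was -1.45 ± 0.32 SE (adjusted p = 1 in edgeR and 0.008 in DESeq2). With all 12 samples in the DESeq2 fit the adjusted p of *Arntl* was 1. *Npas2*, the partner of ARNTL that can replace CLOCK, followed the same order of animals at a lower level, at 1.79, 4.07 and 5.08 CPM against 1.55, 1.9 and 0.624 CPM, and its groups overlapped (-1.40 ± 0.44 SE). *Clock* was at 62.5, 62.3 and 57.9 CPM against 50.9, 56 and 33.4 CPM, apart by a log2 fold change of -0.38, which was -0.19 without animal 80.

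Most genes of the negative arm and the output factors had higher means. In all, 5 of the 21 clock genes had a lower mean, the repressor gene *Nr1d1* among them. *Cry2*, a repressor of the ARNTL pair, was at 41.9, 37.2 and 31.4 CPM against 49.6, 51 and 54.4 CPM (log2 fold change 0.49 ± 0.12 SE). *Tef* was at 175, 121 and 95.8 CPM against 194, 211 and 252 CPM (0.75 ± 0.20 SE). *Per3*, which encodes a period protein, was at 27.2, 22.7 and 14 CPM against 27.1, 42.1 and 48.8 CPM (0.89 ± 0.26 SE). The groups of *Cry2* and *Tef* were apart, and those of *Per3* touched only through animal 25, whose value was slightly above that of animal 50.

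Apart from *Per1*, the clock genes that follow were named after their values were seen, as were *Npas2* and *Clock*. *Hlf* (0.79 ± 0.24 SE), *Nr1d2* (0.39 ± 0.14 SE) and *Wee1* (0.64 ± 0.23 SE), a cell cycle kinase under clock control, had groups that did not overlap. *Per1* (0.71 ± 0.29 SE) and *Cry1* (0.55 ± 0.24 SE) had overlapping groups. *Per2*, at 31.3, 16.8 and 6.14 CPM against 38.7, 48.6 and 21.7 CPM, spread over more than its group difference (1.03 ± 0.48 SE). *Ciart*, a repressor of the ARNTL pair, was at 14.5, 2.85 and 3.82 CPM against 6.99, 17.9 and 16.6 CPM, and *Dbp* at 54.9, 21.4 and 26.5 CPM against 32.9, 51 and 106 CPM. In both, non-diabetic animal 25 lay among the diabetic animals. *Nr1d1*, the repressor of *Arntl*, had a lower mean with overlap, at 129, 114 and 130 CPM against 78.6, 102 and 144 CPM (-0.20 ± 0.19 SE).

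Relative to the non-diabetic mean, the median of the 21 genes was 0.25 in animal 25, 0.03 in animal 42 and -0.25 in animal 89, against 0.26, 0.44 and 0.5 in animals 50, 7 and 80, so animals 25 and 50 were nearly equal. Of the 21 members 16 had a higher mean, beside 51.5% of all genes. The median of the log2 fold changes was 0.49, beside 0.00 for all genes. It lay between 0.33 without animal 80 and 0.59 without animal 25. A median over this list mixes genes that peak at different hours of the day, and the hour at which each heart was collected, which the labels do not give, was not tested.

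**Figure D3:**
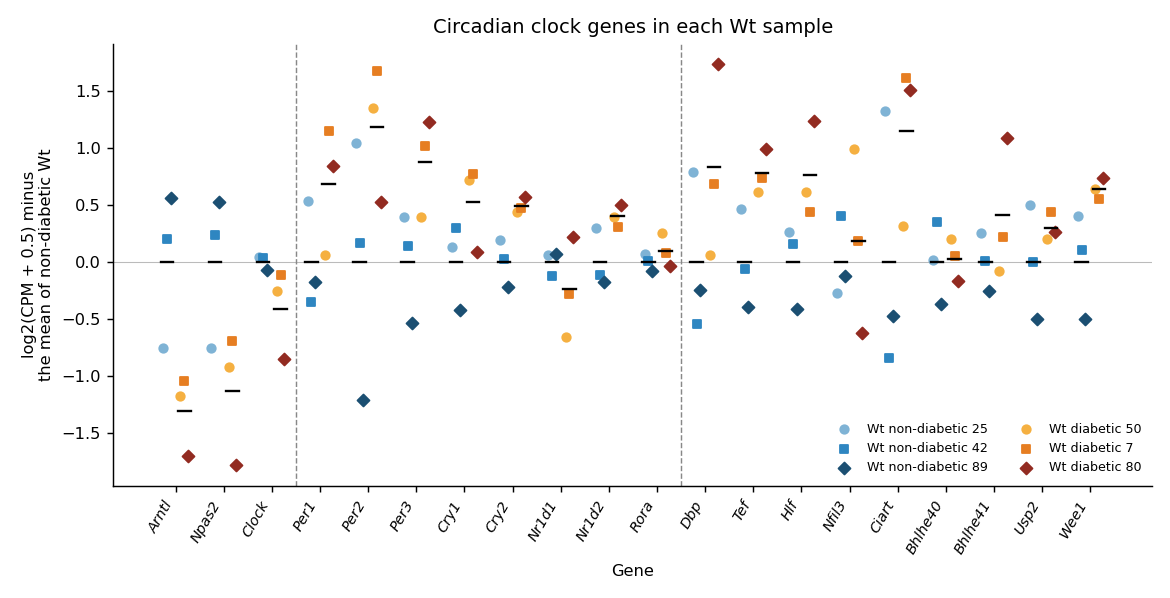
Clock genes (20 of the 21 tested) in each Wt sample, as log2(CPM + 0.5) minus the mean of the 3 non-diabetic samples, with the positive arm at the left, the Per, Cry, Nr1d and Rora genes in the middle and the output and accessory genes at the right. Black bars are group means. Arntl, Npas2 and Clock have lower means in the diabetic samples and most of the others higher means, and non-diabetic 25 lies among or next to the diabetic samples for Arntl, Npas2, Per2, Ciart and Dbp.

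Antigen presentation genes had the highest median of the pathway lists, and it rested mostly on animal 80. Class II molecules of the major histocompatibility complex present peptides from taken-up material to T cells and are made by macrophages and dendritic cells in the heart, and class I molecules present peptides from a cell's own proteins. All 18 genes tested had a higher mean in the diabetic group, with a median log2 fold change of 0.64. Of these, 1 had groups that did not overlap (*H2-D1*), beside 2.06% of all genes in that direction. Relative to the non-diabetic mean, the median of the 18 genes was -0.05 in animal 50, 0.26 in animal 7 and 1.12 in animal 80, and -0.09, 0.03 and 0.14 in the non-diabetic animals. Without animal 80 the median log2 fold change was 0.17, and without any other animal it was between 0.56 and 0.86.

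*H2-Aa*, the alpha chain of a class II molecule, was at 12.9, 28.6 and 41.4 CPM in the non-diabetic animals and at 22.9, 58.2 and 128 CPM in the diabetic animals. The ranges overlapped, and the log2 fold change of 1.32 ± 0.56 SE was 0.54 without animal 80. *Cd74*, the invariant chain that guides class II molecules to their compartment, followed at 28.9, 55.1 and 73.7 CPM against 42.2, 110 and 219 CPM (1.23 ± 0.51 SE). *H2-D1*, a class I heavy chain, was at 356, 393 and 381 CPM against 411, 451 and 685 CPM (0.45 ± 0.18 SE), and *B2m*, the light chain of class I, was at 163, 210 and 218 CPM against 217, 239 and 378 CPM. For *Tap1*, the peptide transporter of class I loading, named after its values were seen, animal 80 stood alone at 35.3 CPM while the other 5 animals were between 9.1 and 10.4 CPM. Genes of this family share sequence, and reads that aligned to several places were not counted.

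Interferon-stimulated genes followed the same animal. Of 28 tested, 22 had a higher mean and none had groups that did not overlap, beside 5.49% of all genes in either direction. The median log2 fold change of 0.17 was -0.14 without animal 80. *Gbp2*, an interferon-induced GTPase, was at 24.2, 23.6 and 22.6 CPM against 31.2, 21.7 and 83.3 CPM. *Igtp*, another GTPase of this kind, was at 11.9 to 13.2 CPM against 13.6, 10.4 and 56.4 CPM. Lymphocyte markers were too sparse for a description, with 2 of 12 tested, and summed to 6.54, 6.79 and 14.7 CPM against 8.27, 9.24 and 18.4 CPM, so that animals 80 and 89 had the most.

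Macrophage markers had a higher mean in all 16 genes, with a median log2 fold change of 0.31. In none were the groups apart, beside 5.49% of all genes in either direction. Resident macrophages clear debris from the heart and aid conduction. The 16 macrophage markers, not only those of resident cells, summed to 427, 415 and 568 CPM in the non-diabetic animals. They summed to 433, 519 and 715 CPM in the diabetic animals. The median log2 fold change was 0.05 without animal 80 and 0.50 without non-diabetic animal 89. *Adgre1*, the F4/80 antigen, was at 4.69, 7.47 and 9.79 CPM against 8.46, 7.72 and 10.6 CPM. *Lyve1*, the hyaluronan receptor of resident macrophages and lymphatic vessels, was at 21.8, 16 and 11.8 CPM against 20.3, 31.9 and 24.6 CPM (0.64 ± 0.23 SE), with animal 7 the highest. *Cd163*, a haemoglobin scavenger receptor, was also highest in animal 7, at 22.3 CPM beside 6.2 to 11.3 CPM in the other 5 animals.

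**Figure D4:**
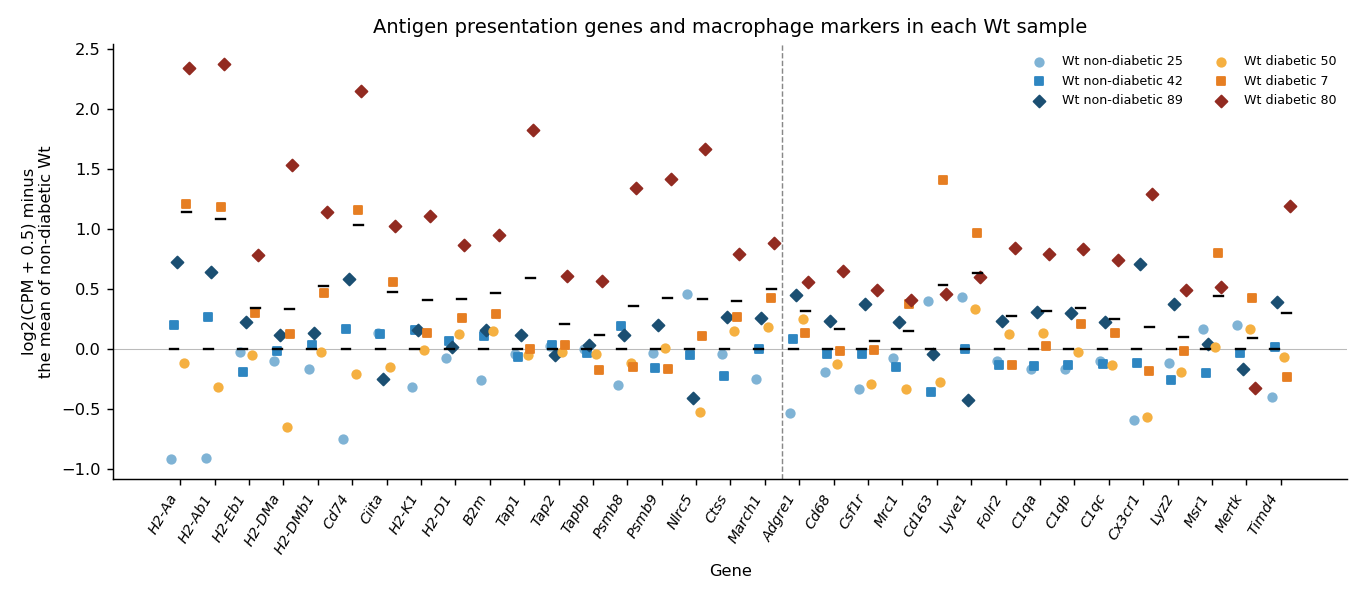
The 18 antigen presentation genes (left of the dashed line) and the 15 further macrophage markers (right) in each Wt sample, as log2(CPM + 0.5) minus the mean of the 3 non-diabetic samples, with black bars as group means. Diabetic 80 is the highest sample for all 18 antigen presentation genes and for most macrophage markers, while diabetic 50 lies within the non-diabetic samples for most.

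Genes of recruitment showed single members rather than a list. *Ccr2*, the receptor that brings monocytes from the blood, was at 0.678, 0.815 and 0.853 CPM against 1.1, 1.79 and 1.7 CPM (0.96 ± 0.30 SE). *Vcam1*, an adhesion molecule of activated endothelium, was at 14.9 to 16 CPM against 22.1, 18.6 and 29.3 CPM (0.58 ± 0.17 SE). In both genes the groups were apart. *Ccr2* is from the list of recruited monocyte and neutrophil markers, of which 7 of 12 were tested. It was the only member with groups apart, beside 2.06% of all genes in the higher direction. The median of the 7 was 0.17, with 5 higher and 2 lower means. *Ccl9*, a chemokine of macrophages, was at 9.87, 5.34 and 6.1 CPM against 8.32, 19.5 and 10.7 CPM, with overlap. Over the 37 genes of complement, chemokines and cytokines, 3 had groups apart with a higher mean and 0 with a lower mean, beside 2.06% and 3.43% of all genes, and the median log2 fold change was 0.04. The neutrophil gene *S100a9*, like the red cell markers, was highest in non-diabetic animal 25, at 10.1 CPM, and was at 0.453 to 1.83 CPM in the other 5.

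Several genes of the heat shock and unfolded protein list had groups apart. When unfolded proteins build up in the endoplasmic reticulum, sensors raise its chaperones and the degradation machinery, in part through the endoplasmic reticulum stress response element (ERSE) in their promoters. Of the 29 heat shock and unfolded protein genes tested, 25 had a higher mean in the diabetic group and 5 had groups apart with a higher mean, beside 2.06% of all genes. These 5 were *Herpud1*, *Calr*, *Sdf2l1* and, named after their values were seen, *Hspe1* and *Hspb7*, which encode heat shock proteins of the mitochondrion and the cytosol. The median log2 fold change was 0.14, and it was 0.06 without animal 50 and 0.32 without animal 80. *Herpud1*, which recruits the degradation machinery, was at 252, 180 and 199 CPM against 291, 394 and 290 CPM (0.63 ± 0.16 SE). *Calr*, the calcium-binding chaperone calreticulin, was at 286, 335 and 276 CPM against 363, 410 and 350 CPM (0.33 ± 0.12 SE). *Sdf2l1*, a stress-induced protein of the same compartment, was at 6.17, 6.52 and 4.35 CPM against 10.4, 7.41 and 7.21 CPM (0.56 ± 0.22 SE).

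*Pdia6*, a disulfide isomerase, was at 77.7, 96.8 and 81.9 CPM against 109, 112 and 92 CPM, with overlap (0.29 ± 0.12 SE). The next 2 chaperone genes were named after their values were seen, because their promoters hold the ERSE. *Hspa5*, the central chaperone BiP, was at 630, 641 and 551 CPM against 802, 776 and 570 CPM, and *Hsp90b1*, the chaperone GRP94, at 243, 267 and 211 CPM against 305, 342 and 238 CPM. In both the values of animal 80 lay among those of the non-diabetic animals. *Hspa1b*, a heat shock gene of the cytosol that was also named after its values were seen (1.1 to 30.3 CPM against 1.82 to 34.4 CPM), varied more within a group than between groups. Of the 11 chaperone and unfolded protein genes whose promoters were searched, 4 held the full ERSE, which has the letters CCAAT and CCACG with 9 bases of any kind between them, on either strand, and occurs in 0.113% of all promoters. Its outer letters are in capitals below, and CGTGG and ATTGG mark it on the reverse strand.
*Hspa5*, chr2:34772005-34772063, plus strand: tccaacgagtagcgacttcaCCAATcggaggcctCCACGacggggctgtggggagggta
*Calr*, chr8:84847055-84847113, minus strand: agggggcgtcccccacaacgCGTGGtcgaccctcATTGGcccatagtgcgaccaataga
*Pdia6*, chr12:17266471-17266529, plus strand: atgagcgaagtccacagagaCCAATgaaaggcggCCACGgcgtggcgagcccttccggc
*Hsp90b1*, chr10:86705513-86705676, minus strand, 2 elements: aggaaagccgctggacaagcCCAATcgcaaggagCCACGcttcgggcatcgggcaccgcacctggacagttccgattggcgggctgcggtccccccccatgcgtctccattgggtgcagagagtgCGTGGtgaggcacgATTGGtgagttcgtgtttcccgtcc
The full ERSE was not in these windows of *Herpud1* and *Sdf2l1*, the members with the largest differences.

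Fibrillar collagens and elastic fibres carry the tension of the ventricular wall, and fibroblasts make most of them. Of 39 genes of collagen and matrix, 25 had a lower mean, 1 had groups apart with a lower mean, beside 3.43% of all genes, and the median log2 fold change was -0.05. *Col5a3* and *Spon2*, described above, are not in this list. *Fbn1*, whose product fibrillin 1 builds microfibrils and holds latent TGF-beta, was at 73.3, 87 and 98.1 CPM against 46.7, 73.1 and 56 CPM (-0.55 ± 0.17 SE). The gap between animals 25 and 7 was small, and the log2 fold change lay between -0.75 and -0.41 without any 1 animal. *Col3a1* was at 197, 347 and 354 CPM against 197, 221 and 245 CPM, with animal 25 level with animal 50 (-0.44 ± 0.20 SE), and *Eln*, elastin, at 31.9 to 36 CPM against 24.5, 34.4 and 21.6 CPM (-0.36 ± 0.17 SE). The list of matrix proteases and TGF-beta had 27 genes tested, 17 of them with a higher mean, and a median of 0.03. Groups were apart in 2 with a higher and 1 with a lower mean, beside 2.06% and 3.43% of all genes. The member apart with a lower mean was *Mmp14*, a membrane protease that cuts collagen. It was at 16.8, 22.4 and 27.4 CPM against 11.8, 16.2 and 12.8 CPM (-0.71 ± 0.19 SE). *Adamts1*, a protease of proteoglycans, was at 22.2 to 31.4 CPM against 38.9, 69.3 and 27.6 CPM (0.76 ± 0.29 SE). *Tgfb2*, a ligand of the TGF-beta family, was slightly higher, at 13.6, 15.1 and 16.7 CPM against 16.9, 18.1 and 18.1 CPM (0.22 ± 0.12 SE, groups narrowly apart). General fibroblast markers had a median of 0.01 and summed to 3024 to 4101 CPM against 3332 to 4965 CPM, with animal 80 the highest.

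Of the alpha-1 adrenergic receptors, *Adra1a* and *Adra1b* had lower levels in all 3 diabetic hearts than in any non-diabetic heart. These receptors carry part of the inotropic and growth response of cardiomyocytes to noradrenaline. *Adra1b* was at 51.3, 54 and 52.1 CPM against 41.8, 37 and 41.8 CPM (-0.39 ± 0.10 SE), and *Adra1a* was at 31.9, 26.3 and 23.4 CPM against 18.7, 21.7 and 18 CPM (-0.48 ± 0.14 SE). *Gpr22*, an orphan receptor of the heart, was at 54.4, 47.4 and 38.5 CPM against 36.8 to 38.8 CPM, with a small overlap (-0.31 ± 0.13 SE). The beta-1 receptor gene *Adrb1*, named after its values were seen, did not share this, at 17.3 to 26.8 CPM against 19.2 to 26.9 CPM (-0.04 ± 0.19 SE). In all, 12 of 18 autonomic receptor and regulator genes had a lower mean, 2 had groups apart with a lower mean and 0 with a higher mean, beside 3.43% and 2.06% of all genes, and the median log2 fold change was -0.09. *Gja1*, the gap junction protein connexin 43 that couples cardiomyocytes, was at 702, 878 and 697 CPM against 699, 466 and 569 CPM (-0.39 ± 0.16 SE). In none of the 31 genes of calcium handling and channels were the groups apart, beside 5.49% of all genes, and the median was -0.01.

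Genes of fuel use differed little. All 38 nuclear-encoded respiratory chain genes had a higher mean in the diabetic group, but with a median log2 fold change of 0.11. None was at an unadjusted p under 0.05 and none had groups apart, beside 1.99% and 5.49% of all genes. Per animal the median of these genes was 0.19, -0.11 and 0.24 in animals 50, 7 and 80 and -0.06, -0.09 and 0.15 in the non-diabetic animals, so animal 7 was the lowest of all 6. The 32 genes of glucose use had a median of 0.04 and the 36 of fatty acid use a median of 0.04. *Dgat2*, which makes triglyceride in the last step of its synthesis, was at 255 to 271 CPM against 305, 334 and 373 CPM (0.34 ± 0.11 SE, groups apart). *G0s2*, an inhibitor of the triglyceride lipase ATGL, was at 70.6, 86.4 and 52.7 CPM against 55.3, 51.3 and 42.5 CPM (-0.49 ± 0.18 SE). *Hk2*, a hexokinase, was at 385 to 436 CPM against 445 to 468 CPM (0.17 ± 0.10 SE).

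*Txnip*, a glucose-responsive inhibitor of thioredoxin and of glucose uptake, was at 271, 222 and 413 CPM in the non-diabetic animals and at 185, 210 and 213 CPM in the diabetic animals. The groups were apart, narrowly between animals 42 and 80, and the log2 fold change of -0.58 ± 0.20 SE was -0.28 without animal 89. *Tbc1d4*, the AKT substrate that holds back glucose transporters inside the cell, was at 110 to 138 CPM against 102 to 108 CPM (-0.26 ± 0.11 SE). *Ccng2*, a target of FoxO factors, was at 27.4 to 30.6 CPM against 19.9 to 26.2 CPM (-0.31 ± 0.13 SE). The lists they come from, 21 FoxO and insulin-repressed genes and 23 genes of insulin and IGF signalling, had medians of 0.09 and 0.03. Higher means were found in 12 of the 21 and in 13 of the 23. Groups were apart in 0 FoxO and insulin-repressed genes with a higher mean and 2 with a lower mean. In the insulin and IGF list they were apart in 1 with a higher mean, *Igf2*, and 1 with a lower mean. The shares of all genes were 2.06% and 3.43%.

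Growth genes of 1 imprinted cluster had higher means. *Igf2*, a fetal growth factor expressed from the paternal allele, was at 30.7, 36.3 and 26.7 CPM against 41.5, 46.9 and 42.9 CPM (0.49 ± 0.13 SE), and the groups were apart. *H19*, the non-coding RNA expressed from the maternal allele next to it, was at 11.8, 20.3 and 10.6 CPM against 22.7, 23.9 and 19.1 CPM, with animal 42 above animal 80 (0.62 ± 0.23 SE). *Impact*, from another imprinted region, was at 44.9 to 54 CPM against 32.9 to 44.5 CPM (-0.32 ± 0.14 SE). The 19 imprinted growth genes tested had a median of 0.05. Groups were apart in 2 with a higher mean and in 1 with a lower mean, *Impact*, beside 2.06% and 3.43% of all genes. Retinoic acid genes also had more higher than lower means, 13 of 15, with a median of 0.18, and groups were apart in 3 with a higher and 1 with a lower mean, beside 2.06% and 3.43% of all genes. *Aldh1a2*, which makes retinoic acid, was at 1.99 to 2.47 CPM against 3.84, 3.18 and 2.67 CPM (0.60 ± 0.23 SE, groups apart), and its receptor gene *Rarb* at 17.1 to 20 CPM against 21.3 to 24.9 CPM (0.27 ± 0.12 SE). *Cyp26b1*, which degrades retinoic acid, was at 22.2 CPM in animal 80 and at 2.81 to 4.94 CPM in the other 5.

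**Figure D5:**
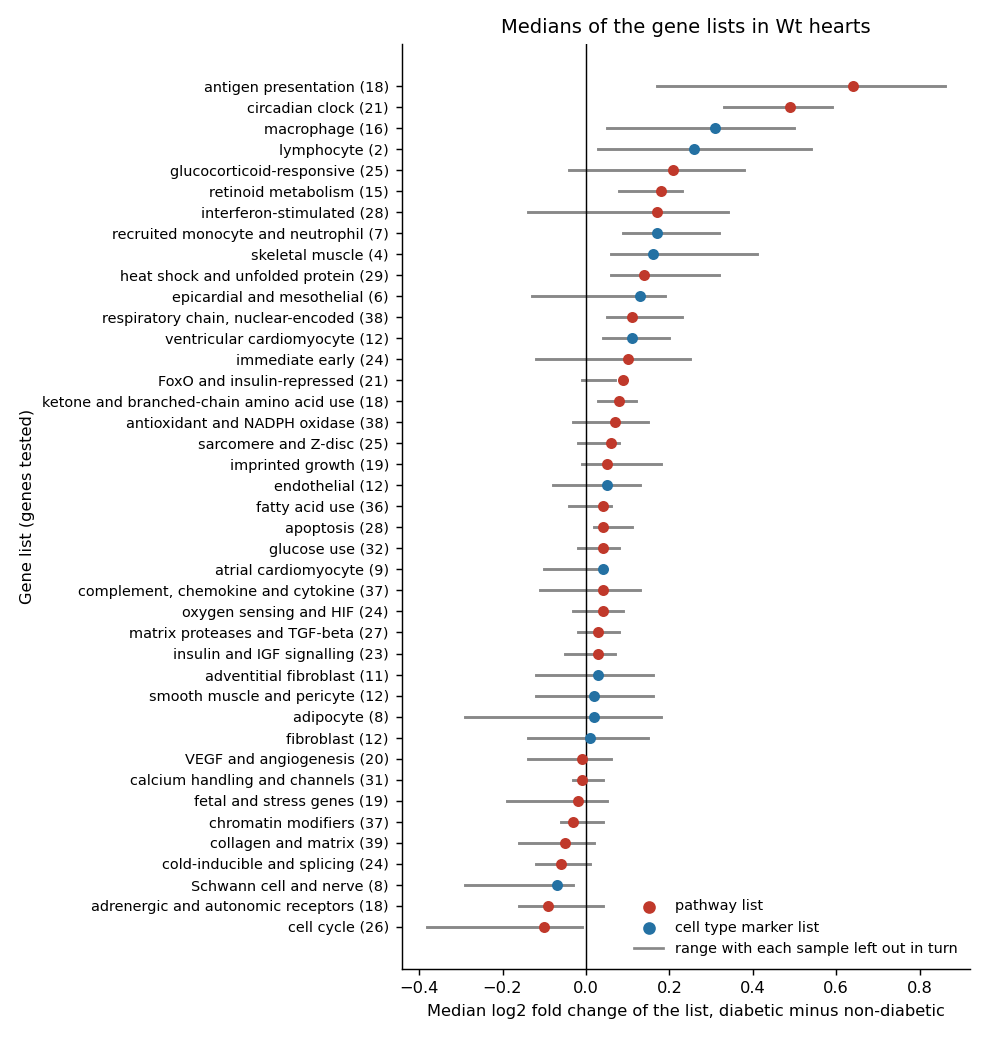
Median log2 fold change (diabetic minus non-diabetic) of each pathway list (red) and cell type marker list (blue), with the number of genes tested in brackets; grey lines span the medians obtained when each of the 6 samples was left out in turn. Antigen presentation (0.64) and the circadian clock (0.49) lie highest and cell cycle (-0.10) lowest; the red cell list, with a median of -1.74, is not drawn.

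The red cell markers had the largest list median, -1.74 over 7 genes, and it rested on non-diabetic animal 25. *Hba-a1*, a haemoglobin alpha chain, was at 2215, 162 and 221 CPM in animals 25, 42 and 89 and at 511, 177 and 152 CPM in animals 50, 7 and 80. Without animal 25 the median of the list was 0.73. Cell cycle genes had a lower mean in 18 of 26, with a median of -0.10. *Mki67*, the proliferation antigen Ki-67, was at 7.65, 10.3 and 8.62 CPM against 8.82, 4.84 and 1.76 CPM, and *Ccnb1*, the mitotic cyclin B1, at 0.617 to 1.3 CPM against 0.114 to 0.64 CPM. Animal 80, the highest for antigen presentation, was the lowest for both. Sarcomere genes had a median of 0.06 over 25 genes, and *Nppa*, the natriuretic peptide that ventricles re-express under load, was at 44.7, 47 and 54.3 CPM against 21.6, 44.4 and 43.1 CPM (-0.42 ± 0.24 SE), with groups narrowly apart and animal 50 the lowest.

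The remaining cell type markers had list medians between -0.07 and 0.26. Endothelial markers had a median of 0.05, with *Pecam1* at 185 to 215 CPM against 183 to 263 CPM, *Emcn* higher as described and *Cldn5*, a tight junction protein of endothelium, at 20.4, 30.9 and 33.3 CPM against 19.7, 22.7 and 14.3 CPM (-0.58 ± 0.21 SE). The 11 adventitial fibroblast markers tested had a median of 0.03. Groups were apart in 1 with a higher mean and 1 with a lower mean, beside 2.06% and 3.43% of all genes. The first was *Dpp4*, a membrane peptidase, at 3.21 to 3.44 CPM against 4.2 to 5.51 CPM (0.52 ± 0.19 SE). The second was *Fbn1*, described above. *Ucp1*, the thermogenic protein of brown adipocytes, had no count in the 6 samples. The summed markers of smooth muscle (1444 to 1738 CPM against 1454 to 1724 CPM) and of Schwann cells and nerve (26.9 to 29.4 CPM against 25.2 to 30.9 CPM) overlapped fully.

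Among the 24 genes that were also measured outside the sequencing, 3 had groups apart, namely *Herc3* and *Fbn1* with a lower mean and *Tgfb2* with a higher mean, beside 5.49% of all genes in either direction. *Axl*, a receptor kinase for the clearance of dead cells, was at 92.9 to 108 CPM against 104, 155 and 143 CPM (0.43 ± 0.15 SE), and *Msr1*, a scavenger receptor of macrophages, at 3.67 to 4.87 CPM against 4.34, 7.85 and 6.36 CPM. *Vegfa*, the main vascular growth factor, was at 492, 589 and 285 CPM against 476, 467 and 210 CPM, with animals 89 and 80 low in their groups (-0.24 ± 0.33 SE). The median log2 fold change of the 24 genes was -0.01. The study's own list of genes for *Wt* hearts from diabetic pregnancy had 38 genes tested. Of these, 12 were apart with a higher mean and 6 with a lower mean, beside 2.06% and 3.43% of all genes. The list was chosen on these same samples, so neither its direction nor its groups lying apart are independent evidence. Besides *Gsta3*, *Il33*, *Tspan18* and the others named above, it held *Ptgis*, the prostacyclin synthase, named after its values were seen, at 16.1 to 17.9 CPM against 21.4 to 25 CPM (0.42 ± 0.12 SE).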

How the data were processed

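LV RNA from 12 offspring was sequenced by 3′-seq, and the 6 *Wt* samples were compared. The authors trimmed reads with Trimmomatic, took out those of ribosomal and mitochondrial origin, mapped what remained to GRCm38 with STAR 2.5.2b and counted it with HTSeq against GENCODE M8. The deposited values are raw counts per gene, 1 file per sample, and the strand setting of the counting is not given in the sources used here. Of the reads listed, 13.09 to 17.02% aligned to several places, 3.34 to 4.61% met no feature and 3.24 to 3.49% were ambiguous; these lines stayed out of library sizes and tests. Gene names and coordinates came from GENCODE M21 (GRCm38), and 46488 of 46983 identifiers had a symbol. Promoters came from RefSeq (GRCm38.p6).

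Genes with at least 10 counts in at least 3 of the 6 samples were tested with edgeR 4.0.16 (TMM, quasi-likelihood, R 4.3.3), diabetic against non-diabetic, with Benjamini-Hochberg adjustment and a threshold of 0.1. CPM values are TMM-scaled. Figures use log2(CPM + 0.5). DESeq2 1.42.0 and limma 3.58.1 served as alternatives, with other filters, scalings and samples left out. The code was tested on simulated data. No 2 libraries of the same group were duplicates, the chi-square per gene within groups being 22.18 to 48.12. Libraries of different groups were not compared in this way. Total counts of 16132442 to 29195547 limit the precision of genes with few counts.

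Genes were named by these rules: the 12 with the smallest p in each direction among those with a mean of at least 50 counts, every DESeq2 call, the 4 members of each list with the smallest p, the first marker of each cell type, the genes the study measured otherwise together with *Hif1a*, and the sex check. A few genes that these rules name are not reported here. Any other gene with values was named after its values were seen. The members and lists were chosen with earlier results of these data known. The animals are separate offspring, and the labels do not give their litters. Fold changes of single genes that share sequence with paralogs (*Gsta3*, *H2* genes, haemoglobins, *Hspa1b*) are uncertain, since reads aligned to several places were not counted.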

Additional observations from a re-analysis of the deposited data

How the results depend on the processing

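edgeR called no gene with the 12 samples in 1 fit, DESeq2 size factors, filterByExpr, a threshold of 0.05, a robust fit or without any 1 animal. With sample weights, limma-voom also called no gene. DESeq2 called 10 genes on 6 samples and 8 on 12. Without the filter edgeR called 91, of which 9 had more than 80% of their counts in 1 sample. Without 1 animal, DESeq2 called between 4 (without animal 42, and without animal 89) and 18 (without animal 25), and edgeR found between 157 (without animal 42) and 505 (without animal 80) genes at an unadjusted p under 0.05, beside 285. Without animal 80 the groups were apart in 998 genes with a higher and 1258 with a lower mean, and without animal 25 in 724 and 1028; 2 animals against 3 are apart more easily by construction. These counts and fits without 1 animal for DESeq2 were chosen after seeing the data. Moves of list medians were checked only for antigen presentation, interferon, red cell, glucocorticoid, circadian clock, macrophage, heat shock, respiratory chain and collagen lists. Medians of log2 fold changes moved by more than the spread between animals for antigen presentation (0.17 to 0.86), interferon-stimulated genes (-0.14 to 0.34), red cell markers (-2.76 to 0.73) and glucocorticoid-responsive genes (-0.04 to 0.38), as ranges over fits without 1 animal. The sign of the log2 fold change turned, over such fits, for *Tap1* (-0.03 to 1.22), *Igtp* (-0.05 to 1.49), *S100a9* (-2.28 to 0.43), *Hspa1b* (-2.37 to 1.3), *Adrb1* (-0.21 to 0.08), *Hba-a1* (-2.39 to 0.55) and *Vegfa* (-0.49 to 0.05); the cause was not tested. Of the 92 genes recomputed, 0 turned their sign under another scaling, 12 samples or DESeq2. No paired analysis was possible because the animal numbers are not shared between the groups. With 3 animals a group and 4 residual degrees of freedom, the spread between animals limits the precision, with an SE of the log2 fold change of 0.56 for *H2-Aa* even at a mean of 1056 counts.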
